A study of Mus musculus with 18 samples.

Results

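The mitochondrial respiratory chain is built from nuclear genes for nearly all of its subunits, and the nuclear-encoded subunits of the chain and of ATP synthase are described here in 3 lines of mutant mouse liver. Members were the protein-coding mouse genes whose symbol starts with Nduf, Uqcr, Atp5, Cox4, Cox5, Cox6, Cox7 or Cox8, together with Sdha, Sdhb, Sdhc, Sdhd, Cycs and Cyc1. The reference gene table held 98 such symbols, 93 of them had a probe on the array, and 89 were tested among 17721 genes in all. The 5 symbols without a probe were Ndufa4l2, Ndufaf8, Ndufb1, Ndufb4b and Ndufb4c. The rule itself reads gene names only, though the choice of this gene family was made with earlier results of these data known.

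Complex I (NADH dehydrogenase) and complex II (succinate dehydrogenase) pass electrons to coenzyme Q, complex III passes them to cytochrome c, and complex IV (cytochrome c oxidase) passes them to oxygen, while ATP synthase, also called complex V, uses the proton gradient that results. A few core subunits come from mitochondrial DNA, and the nuclear ones have to be made, imported and assembled with them. In liver this machinery supplies the ATP for urea synthesis, gluconeogenesis and biosynthesis. Transcription of many of the nuclear genes depends on nuclear respiratory factor 1 and on GABP (nuclear respiratory factor 2), with PGC-1 coactivators. The abbreviations Nrf1 and Nrf2 are shared by other proteins. In this study they stand for the cap'n'collar factors NF-E2-related factor 1 (gene Nfe2l1) and NF-E2-related factor 2 (gene Nfe2l2), which bind antioxidant response elements with small Maf proteins, and Keap1 is the adaptor that targets NF-E2-related factor 2 for degradation.

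The data were 18 single-colour arrays of liver RNA, 3 arrays in each of 6 groups, from female mice 6 weeks of age. Nrf1 CKO mice, Nrf1(dN/-)::Alb-Cre, carried a null allele beside the dN allele, and Cre under the albumin promoter. Nrf1 Control mice were Nrf1(dN/+) on the same mixed background. By these genotypes the controls had neither the null allele nor Cre, and the part of each in the results was not tested. Which liver cells lost Nfe2l1 was not tested either. Nrf2 KO mice, Nrf2(-/-), were compared with Nrf2(+/+) mice on C57BL/6. Keap1 KD mice, Keap1(Kd/-), were compared with Keap1(Kd/+) mice of mixed background, so that the controls of this line also carried a knockdown allele. The labels number the samples within a group and do not say that they came from separate animals, so the p-values cover only the variation among the arrays deposited, part of which may be technical. The targeted genes went with their labels. Nfe2l1 was not well above background on any of the 3 Nrf1 CKO arrays and lay at -6.33 or less there against 3.59 or more in the controls, Nfe2l2 was above background on 1 of 3 Nrf2 KO arrays and lay at -3.16 or less against 3.13 or more, and Keap1 fell by 2.39 in Keap1 KD (limma, adjusted p = 0.00124).

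Levels below are log2 signals relative to the array's own 75th percentile, so that 0 is the signal that 75% of spots do not exceed. They rank arrays for a given probe and do not rank genes. A change is the mutant mean minus the control mean on that scale, and calls were made with limma where the p adjusted over all 17721 genes was under 0.05. The arrays had 50% to 65% of their spots above background, and no spot was saturated. They lay on 7 slides with 4 scan dates. All Nrf1-line arrays shared a scan date, with controls 1 and 2 on slide 1 and control 3 and the 3 CKO arrays on slide 2. No slide or scan date held both Nrf2 KO and Nrf2 Control arrays. Keap1 Control 3 and Keap1 KD 3 shared slide 7.

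All 89 tested members were above background on all 18 arrays. Cox4i2 and Cox8b were above it on 2 arrays each, and Cox7b2 and Cox8c on 0, and these 4 were not tested. The tested members comprised 36 genes of complex I, 7 complex I assembly factors (the Ndufaf genes), 4 of complex II, 9 of complex III, cytochrome c itself, 15 of complex IV and 17 of complex V. Ndufa4 was counted with complex IV, where its protein is found. The members were bright, with 84 of the 89 in the brightest quartile of all genes tested.

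In livers of Nrf1 CKO mice, with arrays scaled to the 75th percentile, 28 of 89 respiratory chain genes fell and 2 rose. The 28 made up 31.5% of the members, while 10.9% of all genes tested were called lower and 7.99% higher, or 18.9% in either direction. The called decreases ran from -0.81 (Uqcr11) to -0.47 (Atp5o), and the increases were 2.21 (Cox6a2) and 0.60 (Ndufaf5). The median change was -0.51 over the members and -0.09 over all genes, and 86 of 89 members were below 0. All 3 CKO arrays lay below all 3 control arrays for 74 members (83.1%), against 28.1% of all genes. The size of this shift depended on how the arrays were put on a common scale, as the values after the gene-by-gene account show.

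Among the complex I genes 12 of 36 fell, with a median change of -0.54 over the 36. They were Ndufa1, Ndufa5, Ndufa6, Ndufa9, Ndufa11, Ndufa12, Ndufa13, Ndufb5, Ndufb8, Ndufb9, Ndufb11 and Ndufs8. Ndufb9 and Ndufa11, accessory subunits of the membrane arm, fell most. Ndufb9 measured 8.44, 8.43 and 8.18 in the controls and 7.75, 7.65 and 7.35 in CKO, a change of -0.77 (SE 0.18, limma adjusted p = 0.0104). Ndufa11 measured 2.80, 2.88 and 2.66 in the controls and 2.27, 1.91 and 2.02 in CKO, a change of -0.72 (SE 0.20, limma adjusted p = 0.0221). For both genes every CKO array was below every control array. Ndufs1, the large iron-sulphur subunit of the electron input module, measured 6.19, 6.16 and 5.74 against 5.66, 5.47 and 5.33, and its change of -0.54 was not called (limma adjusted p = 0.139). Ndufv1, which carries the flavin that accepts electrons from NADH, had a change of -0.48 that was not called either (limma adjusted p = 0.106).

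Of the 7 assembly factors of complex I, 2 fell and 1 rose, with a median of -0.20. Ndufaf4 measured 2.91, 3.01 and 2.76 in the controls and 2.51, 2.31 and 1.98 in CKO, a change of -0.63 (SE 0.21, limma adjusted p = 0.0483). Its other tested probe gave -1.18. Ndufaf1 fell by 0.53 (limma adjusted p = 0.0345). Ndufaf5, a methyltransferase-family assembly factor, went the other way, from -1.29, -1.25 and -0.83 in the controls to -0.28, -0.48 and -0.82 in CKO, a change of 0.60 (SE 0.18, limma adjusted p = 0.0324). CKO 3 and control 3 were nearly equal for this gene, and within slide 2 the difference was 0.30.

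Of the 4 subunits of succinate dehydrogenase, which also works in the TCA cycle, 2 fell. Sdha, the flavoprotein with the substrate site, measured 4.99, 4.61 and 4.54 in the controls and 4.29, 3.97 and 3.66 in CKO, a change of -0.74 (SE 0.19, limma adjusted p = 0.0181). A dimmer Sdha probe gave only -0.18. Sdhb, the iron-sulphur subunit, measured 5.74, 5.69 and 5.41 against 5.30, 4.76 and 4.60, a change of -0.73 (SE 0.22, limma adjusted p = 0.0345). The groups did not overlap for either gene. The membrane anchors Sdhc and Sdhd had changes of -0.45 and -0.42 that were not called (limma adjusted p = 0.0547 and 0.109).

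In complex III 3 of 9 genes fell, all of them small accessory subunits, and the median was -0.49. Uqcr11 measured 7.99, 7.96 and 7.74 in the controls and 7.29, 7.10 and 6.88 in CKO, a change of -0.81 (SE 0.19, limma adjusted p = 0.012). Uqcrh, the hinge protein that helps cytochrome c dock, measured 8.82, 8.94 and 8.59 against 8.36, 8.07 and 7.88, a change of -0.68 (SE 0.18, limma adjusted p = 0.0188). Uqcrq fell by 0.50 (limma adjusted p = 0.0407). The core protein Uqcrc1, the Rieske iron-sulphur protein Uqcrfs1 and cytochrome c1 (Cyc1) had changes of -0.32, -0.47 and -0.41 that were not called. The groups did not overlap for any of the 9 genes. Cytochrome c (Cycs), the soluble carrier between complexes III and IV, measured 5.97, 6.14 and 5.92 against 6.06, 5.90 and 5.80, and its groups overlapped (change -0.09, limma adjusted p = 0.801).

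In complex IV 1 of 15 genes fell and 1 rose, with a median of -0.39. Cox6b1, which faces the intermembrane space and helps bind cytochrome c, measured 3.41, 3.34 and 3.07 in the controls and 2.82, 2.76 and 2.61 in CKO, a change of -0.54 (SE 0.16, limma adjusted p = 0.0313). Cox4i1, a regulatory subunit, changed by -0.52 (limma adjusted p = 0.0662), Cox5a by -0.39, Ndufa4 by -0.39 and Cox8a by -0.49, none of them called. Cox6a2, the heart and skeletal muscle isoform of subunit 6a, measured -2.75, -2.47 and -3.44 in the controls and -1.03, -0.61 and -0.37 in CKO, a change of 2.21 (SE 0.31, limma adjusted p = 0.000739) or 4.64-fold. Its ubiquitous counterpart Cox6a1 measured 9.38, 9.27 and 9.12 against 8.95, 8.85 and 8.82, a change of -0.39 that was not called. On this scale the means of the 2 isoforms lay on opposite sides of their controls, with no overlap between groups for either. The Cox6a1 change equalled the complex IV median of -0.39, which became 0.02 after quantile normalization (described below). The part of the scaling in the Cox6a1 change was not tested. Cox6a2 was still called higher after quantile normalization (2.22, limma adjusted p = 0.00113).

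ATP synthase had 8 of 17 genes lower and none higher, with a median of -0.57. The 8 were Atp5c1, Atp5g1, Atp5h, Atp5j, Atp5j2, Atp5l, Atp5mpl and Atp5o. Atp5mpl, a small proteolipid of the membrane part, measured 5.73, 5.76 and 5.39 in the controls and 5.14, 4.91 and 4.67 in CKO, a change of -0.72 (SE 0.21, limma adjusted p = 0.0287). Atp5g1, one of the genes for the proton-carrying c subunit, measured 6.66, 6.57 and 6.21 against 6.01, 5.78 and 5.57, a change of -0.70 (SE 0.20, limma adjusted p = 0.0278). Both genes were lower on every CKO array. Atp5a1 and Atp5b, subunits of the catalytic part, had changes of -0.32 and -0.28 that were not called (limma adjusted p = 0.165 and 0.258). The other Atp5a1 probe gave -0.66, and the other Atp5b probes gave -0.32 and -0.06. Atpif1, the inhibitor of the synthase, lies outside the name rule and had a change of 0.42 that was not called (limma adjusted p = 0.19).

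**Figure D1:**
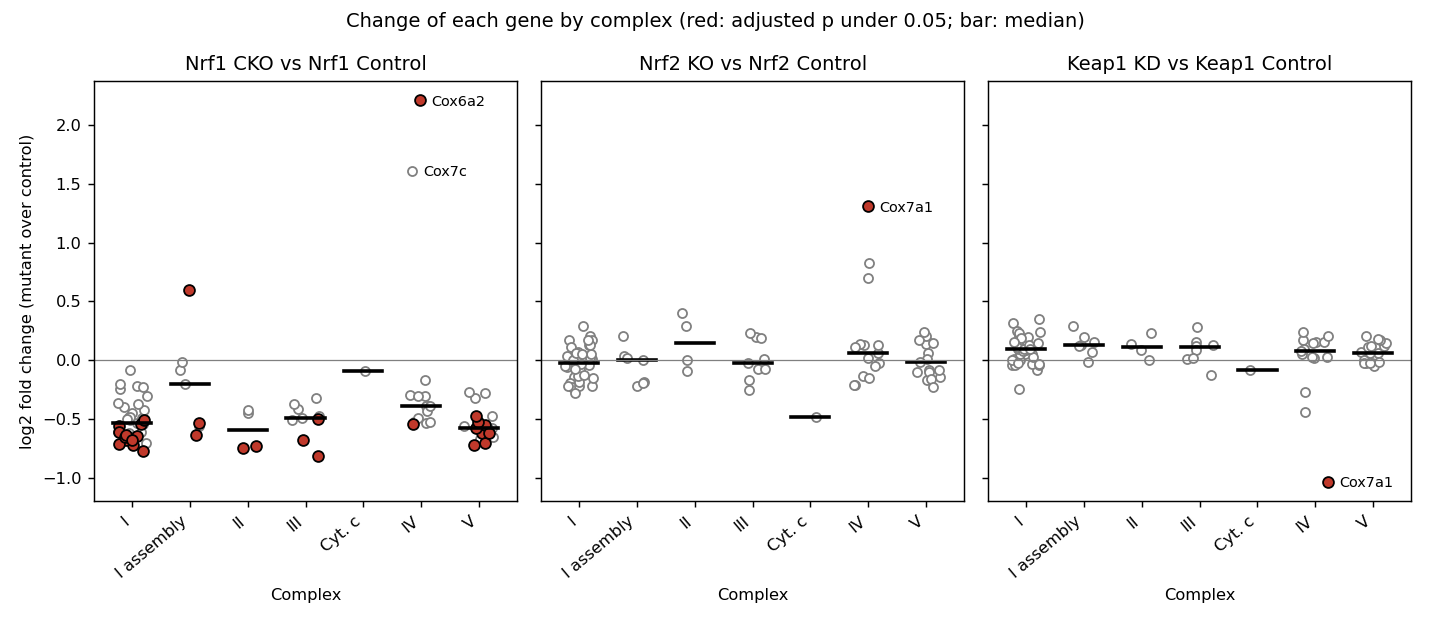
Change of each of the 89 genes (y axis, log2 fold change of mutant over control) by complex (x axis) in the 3 comparisons, one point per gene, red where the limma adjusted p was under 0.05, with a bar at the median of each class. In Nrf1 CKO the medians run from -0.59 (complex II) to -0.09 (cytochrome c), and in the other lines they lie near 0 apart from cytochrome c in Nrf2 KO (-0.48).

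Array by array, the median of the 89 genes was 6.39, 6.34 and 6.18 in the Nrf1 controls and 6.01, 5.79 and 5.58 in CKO, with no overlap. The 75th percentile used for scaling moved with it in the opposite direction, at 7.60, 7.72 and 7.97 in the controls and 8.25, 8.44 and 8.65 in CKO. Before scaling, the members' median log2 signal was 13.98, 14.07 and 14.15 in the controls and 14.26, 14.24 and 14.24 in CKO, so the unscaled signals were slightly higher in CKO. After quantile normalization, which gives every array the same distribution of signals, the medians were 14.45, 14.48 and 14.49 against 14.49, 14.45 and 14.31, and the groups overlapped. The lower values in CKO are thus relative to the 75th percentile and are not seen in the unscaled intensity. The part of array brightness in it was not tested.

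**Figure D2:**
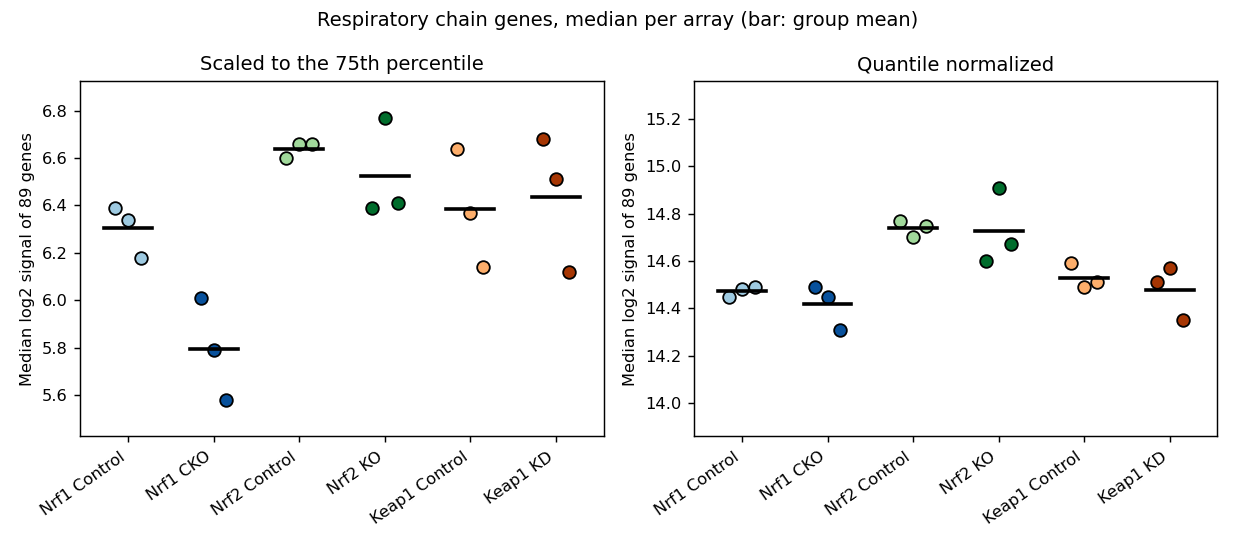
Median log2 signal of the 89 genes on each of the 18 arrays (points, 3 per group; bars, group means), with arrays scaled to the 75th percentile (left) and quantile normalized (right), both axes spanning the same range. On the left the 3 Nrf1 CKO arrays (5.58 to 6.01) lie below the 3 controls (6.18 to 6.39), and on the right these groups overlap.

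Under quantile normalization the median change of the members was -0.06, with 58 of 89 below 0, and that of all genes was -0.02. Calls then numbered 2 lower (Ndufa11 and Ndufb5) and 2 higher (Cox6a2 and Ndufaf5), against 7.08% and 8.68% of all genes. By class the medians became -0.13 for complex I, -0.01 for its assembly factors, -0.30 for complex II, -0.01 for complex III, 0.02 for complex IV and -0.07 for complex V, and the change of cytochrome c became 0.37. Complex II thus kept the largest negative median, and complex IV and cytochrome c changed sign. Brightness moved with the shift, since the median change of all genes was 0.07, 0.02, -0.09 and -0.29 from the dimmest to the brightest quartile, and -0.52 for the 84 members of the brightest quartile. After quantile normalization these last 2 values were -0.02 and -0.07. With each array scaled to its median, the members' median was -0.60 and that of all genes -0.19. Of the members 13 were then lower and 1 higher, against 8.6% and 5.21% of all genes.

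Slide moved with genotype in this line. Within slide 2, which held the 3 CKO arrays and control 3, the members' median difference was -0.36, with 83 of 89 below 0, and that of all genes was -0.11. With slide as a block, Cox6a2 was the only member called and 0.367% of all genes were called. Cox6a2 had a difference of 2.77 within slide 2, and Uqcr11, Ndufb9, Sdha and Sdhb had differences of -0.65, -0.60, -0.57 and -0.53. Leaving out control 1, control 2, CKO 2 or CKO 3 left 2, 7, 4 and 2 members called, leaving out control 3 or CKO 1 left 29 and 37, and the median change stayed between -0.59 and -0.43. In the same order, 3.46%, 6.12%, 3.26%, 2.47%, 9.32% and 13.8% of all genes were called lower. The shares called higher were 3.4%, 6.54%, 3.41%, 2.83%, 8.16% and 9.64%.

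**Figure D3:**
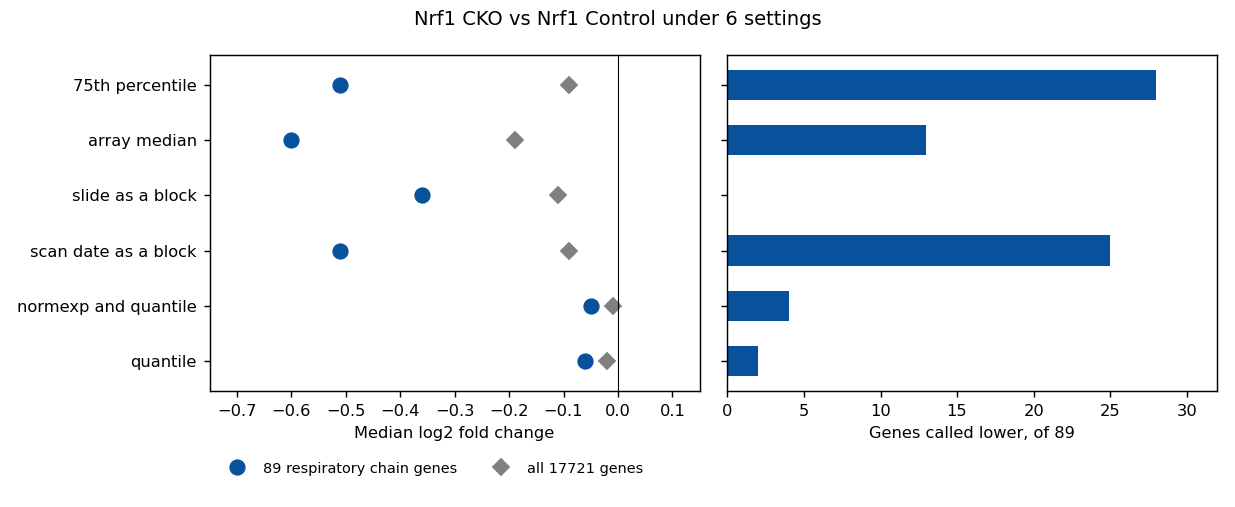
Median log2 fold change in Nrf1 CKO of the 89 respiratory chain genes (circles) and of all 17721 genes (diamonds) under 6 settings (left), and the number of the 89 called lower under each (right). The members' median is between -0.60 and -0.36 in 4 settings and -0.05 or -0.06 in the 2 with quantile normalization, and the count runs from 28 to 0. Of all genes, 10.9% to 0.135% are called lower. Scan date as a block could not change the median (-0.51), because all arrays of this line shared a scan date.

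Cox7c, a small complex IV subunit, is described because its values stood out and was picked after they were seen. It measured -1.59 and -1.68 on Nrf1 controls 1 and 2, the arrays of slide 1, and 1.50 on control 3, against 1.14, 1.07 and 0.85 in CKO. On the 12 arrays of the other lines it lay between 1.74 and 2.79. Its change of 1.61 in CKO was not called (limma adjusted p = 0.0666), and on slide 2 CKO was lower than control 3. Cox6b2, the testis-type isoform of subunit 6b, lay between 0.89 and 2.28 on the 6 Nrf1-line arrays and between -3.20 and -1.36 on the 12 others, and was called in no comparison. The lines differ in strain, alleles, slide and scan date, so this difference between lines has no test here. By the genotypes, all mice of the Nrf1 line, controls included, carried the dN allele.

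Other mitochondrial genes were counted from lists of general knowledge, to be read against the 10.9% of all genes called lower and 7.99% called higher in Nrf1 CKO. Of 19 regulators of mitochondrial biogenesis tested, 4 (21.1%) fell in Nrf1 CKO and none rose, with a median of -0.19 (-0.17 after quantile normalization). Ppargc1b, a PGC-1 coactivator, measured 2.82, 2.48 and 2.29 in the controls and 1.92, 0.74 and 0.49 in CKO, a change of -1.48 (SE 0.39, limma adjusted p = 0.0181), and -1.39 after quantile normalization (adjusted p = 0.0234). Sirt3, the mitochondrial deacetylase, changed by -0.85 (limma adjusted p = 0.0155), the mitochondrial DNA polymerase Polg by -0.57 (0.0189) and the mitochondrial transcription factor Tfam by -0.46 (0.0471). Of these 4, Ppargc1b and Polg were also called after quantile normalization. Ppargc1a had a change of -1.31 with overlapping groups (limma adjusted p = 0.0562). The genes for nuclear respiratory factor 1 (symbol Nrf1), Gabpa and Esrra had changes of -0.19, -0.21 and -0.48, none of them called.

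The TCA cycle and pyruvate dehydrogenase list had 6 of 20 genes lower (30%, median -0.33, or 0.02 after quantile normalization), led by Pdk1, a kinase that switches off pyruvate dehydrogenase, at -2.25 (limma adjusted p = 0.00128), and Idh3b, a subunit of NAD-dependent isocitrate dehydrogenase, at -0.77 (0.0118). Protein import had 8 of 24 lower (33.3%, median -0.33, quantile -0.09), led by the outer membrane receptor Tomm70a at -0.80 (limma adjusted p = 0.00918). The mitochondrial ribosome had 7 of 78 lower (8.97%, median -0.26, quantile -0.02), a share under that of all genes, and the largest of these changes was that of Mrps24 at -0.81 (limma adjusted p = 0.00606). Assembly factors with other names had 6 of 37 lower (16.2%, median -0.15), among them Uqcc3 for complex III at -0.69. Other electron donors and ATP carriers had 2 of 17 lower (11.8%, near the share of all genes) and 1 higher, the latter Slc25a4, the muscle-type ADP/ATP carrier, at 0.69 (limma adjusted p = 0.0224, and 0.93 after quantile normalization). Coenzyme Q synthesis had 1 of 11 lower (9.09%), Coq9 at -0.47. The 13 mitochondrially encoded subunits were not analysed here. In Nrf2 KO none of these lists had a called gene, and in Keap1 KD the 1 call was Coq7, a hydroxylase of coenzyme Q synthesis, at 0.90 (limma adjusted p = 0.0224).

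Markers of several liver cell types also moved in Nrf1 CKO, where 10.9% of all genes were called lower and 7.99% higher. In whole tissue, fewer cells of a type and less RNA per cell cannot be told apart. Of 15 hepatocyte markers 9 fell and none rose (median -0.79, or -0.43 after quantile normalization), and their mean level was 6.81 to 7.13 in the controls and 5.94 to 6.56 in CKO. Of 13 stellate cell and fibroblast markers 11 rose (mean level 1.04 to 1.24 against 1.75 to 2.48), of 13 macrophage markers 4 rose and 1 fell (1.10 to 1.84 against 2.04 to 2.91), and all 10 proliferation markers rose (-1.53 to -0.75 against 0.87 to 1.05). Cholangiocyte markers had 0 of 7 called (-1.39 to -1.11 against -1.25 to 0.08), lymphocyte markers 1 of 8 higher (-2.86 to -1.92 against -2.54 to -2.03), endothelial markers 1 of 10 lower (1.54 to 1.69 against 1.22 to 1.50) and erythroid markers 1 of 5 lower (2.49 to 2.86 against 1.66 to 2.0). The endothelial share called lower (10%) was near that of all genes, and the lymphocyte and erythroid calls were 1 gene each. The part of the marker shifts in the change of the respiratory chain genes was not tested. Of the 8 muscle and fat markers with a probe, none was tested. Ckm and Lep were above background on 0 of 18 arrays, Actn2 and Ucp1 on 1, Myh7 on 2, Tnnt3 on 3, Adipoq on 4 and Cfd on 7. The muscle markers Myh7, Ckm, Actn2 and Tnnt3 were above background on 0 of the 3 Nrf1 CKO arrays, where the muscle isoform Cox6a2 was higher. They were also above it on 0 of the 3 Nrf1 Control arrays. The part of muscle tissue in the Cox6a2 result was not tested.

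In livers of Nrf2 KO mice 1 of 89 respiratory chain genes was called, against 0.0621% of all genes (11 genes). The members' median change was -0.00 and that of all genes 0.01. The gene was Cox7a1, the muscle isoform of subunit 7a of complex IV (cytochrome c oxidase). It measured 2.57, 2.09 and 2.11 in Nrf2 Control and 3.45, 3.60 and 3.65 in Nrf2 KO, a change of 1.31 (SE 0.20, limma adjusted p = 0.0182) or 2.47-fold. Every KO array lay above every control array. Of the muscle markers, Myh7 was above background on 2 of the 3 Nrf2 KO arrays and Tnnt3 on 1, Ckm and Actn2 on 0. None of the 4 was above it on a Nrf2 Control array. Of the fat markers, Adipoq was above it on 1 Nrf2 KO and 0 Nrf2 Control arrays. Cfd was above it on 1 array of each group, and Lep and Ucp1 on 0. The part of these markers in the result was not tested. Cox7a1 was the 1 gene called higher in this comparison among all genes tested (0.00564%). Its ubiquitous counterpart Cox7a2 measured 7.09, 7.30 and 7.07 against 6.98, 7.09 and 6.75, a change of -0.21 with overlapping groups (limma adjusted p = 0.847).

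The Cox7a1 call in Nrf2 KO was close to the threshold, and its change lay between 1.22 and 1.84 under the alternatives run. It remained called after quantile normalization (1.34, limma adjusted p = 0.0048), and not when arrays were scaled to their median (1.25, 0.0769), when dim probes were kept (1.31, 0.0607) or when the 6 arrays of the line were fitted alone (1.31, 0.0911). Without any single array other than control 1 the change was 1.22 to 1.37 and the call was lost. With slide or scan date as a block, which rests on the arrays of the other lines because none was shared, the change was 1.84 and 1.82 with adjusted p of 0.337 and 0.168. An unadjusted p under 0.05 was found for 4 members (4.49%), below the 8.89% of all genes. Cycs measured 6.80, 6.92 and 6.93 in the controls and 6.39, 6.58 and 6.24 in KO with no overlap (limma adjusted p = 0.511), and its 2 other probes gave -0.26 and -0.30. For Ndufv1 the spot of KO 1 was an outlier and the fit used 2 KO arrays (change 0.17).

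In livers of Keap1 KD mice 1 of 89 was called, again Cox7a1 and now lower, against 4.58% of all genes called lower and 5.52% called in either direction. It measured 3.42, 2.84 and 2.81 in Keap1 Control and 2.20, 1.98 and 1.79 in Keap1 KD, a change of -1.03 (SE 0.20, limma adjusted p = 0.00848), so that the level fell by 51.1%. The groups did not overlap. Cox7a2 had a change of 0.10 (limma adjusted p = 0.893). Of the muscle markers, Actn2 and Tnnt3 were above background on 1 Keap1 Control array each and Tnnt3 on 1 Keap1 KD array. Myh7 and Ckm were above it on 0 arrays of this line. Of the fat markers, Adipoq was above it on 1 Keap1 Control and 0 Keap1 KD arrays. Cfd was above it on 2 arrays of each group, and Lep and Ucp1 on 0. The part of these markers in the result was not tested. The Cox7a1 difference was -1.02 within slide 7 (1 array a group) and -1.03 within scan date 4 (1 KD and 2 control arrays). It was called in each of the 6 fits that left out an array of the line (-1.14 to -0.84). It was not called with slide as a block (-0.94, limma adjusted p = 0.164), with scan date as a block (-0.92, 0.0831), with the line alone (-1.03, 0.107) or with arrays scaled to their median (-0.72, 0.101).

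No other member was called in Keap1 KD. The members' median was 0.09 with 68 of 89 above 0, and all genes had a median of 0.00. After quantile normalization the members' median was -0.01 with 46 below 0, and within slide 7 it was 0.06. Class medians lay between -0.08 (cytochrome c) and 0.13 (complex I assembly factors). The fit shared its estimate of a gene's spread over all groups, so the precision was alike in the 3 comparisons by design. The median 95% confidence interval was plus or minus 0.41 around a change. Spreads within groups could differ, as for Ndufb10 with an SD of 0.11 in Nrf2 Control and 0.63 in Keap1 Control. The interval lay within plus or minus 1 for 58 members in Nrf1 CKO, 84 in Nrf2 KO and 85 in Keap1 KD, and these intervals are not adjusted for the number of genes. Calls depended on the SE as well as on the size of a change. Ndufb10 at -0.70 in Nrf1 CKO (SE 0.25, limma adjusted p = 0.064) was not called, while Uqcrq at -0.50 (SE 0.16, limma adjusted p = 0.0407) was. Cox6b2 at 0.83 in Nrf2 KO (SE 0.39, limma adjusted p = 0.564) was not called. Among the marker lists, 1 macrophage and 1 endothelial marker were called higher and 1 stellate cell marker lower in Keap1 KD, and none in Nrf2 KO. Of all genes in Keap1 KD, 4.58% were called lower and 0.948% higher.

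**Figure D4:**
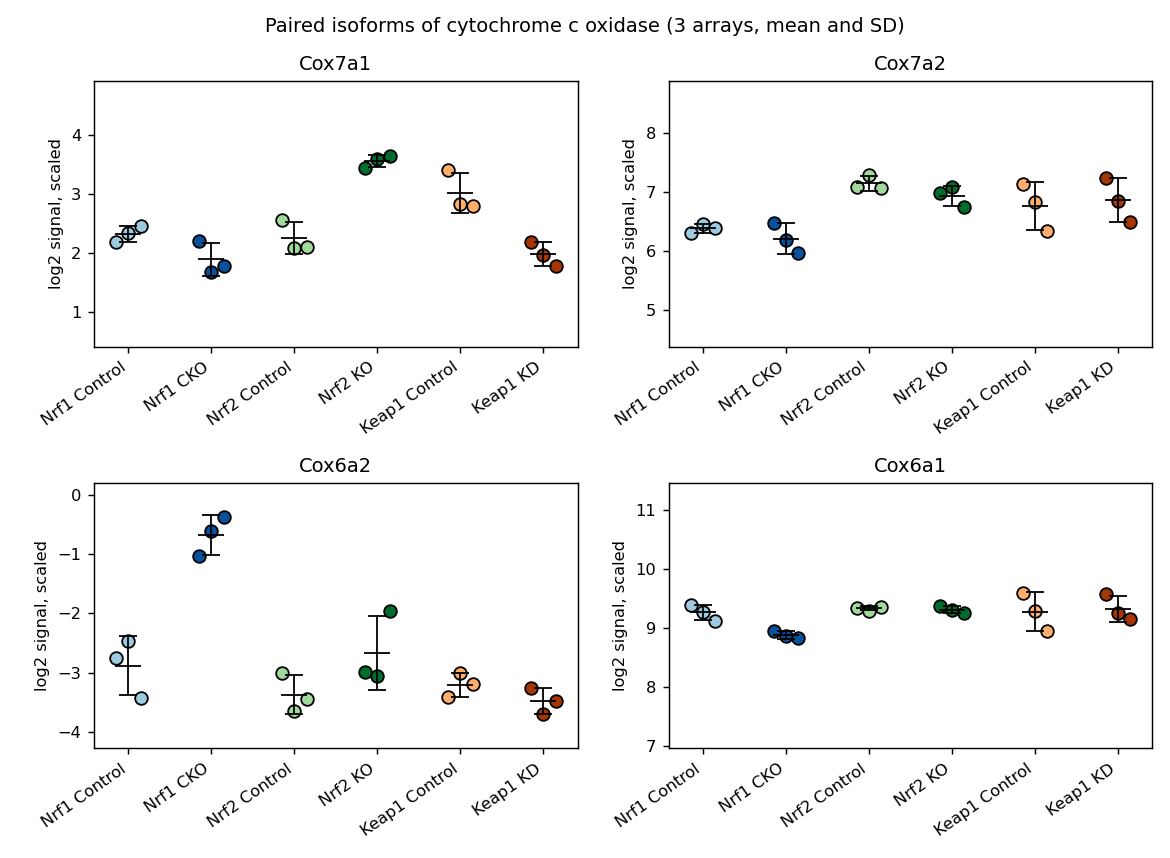
Levels of the muscle-type isoforms Cox7a1 and Cox6a2 (left) and of their ubiquitous counterparts Cox7a2 and Cox6a1 (right) on each array (points), with group mean and SD (n = 3), y axis in log2 signal scaled to the 75th percentile, each panel spanning the same range. Cox7a1 is above all its controls in Nrf2 KO (3.45 to 3.65) and below them in Keap1 KD (1.79 to 2.20), and Cox6a2 is above them in Nrf1 CKO (-1.03 to -0.37).

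Tests of the difference between lines called few members. The effect on Cox7a1 in Nrf2 KO exceeded that in Keap1 KD by 2.34 (SE 0.28, limma adjusted p = 0.000706), the 1 member among 3.09% of all genes called in that test. Between Nrf1 CKO and Nrf2 KO 2 members differed, against 5.58% of all genes, namely Cox7a1 (-1.74, limma adjusted p = 0.00619) and Sdhc (-0.85, 0.0371). Between Nrf1 CKO and Keap1 KD 3 differed, against 6.92% of all genes, namely Cox6a2 (2.49, limma adjusted p = 0.00864), Ndufa12 (-0.89, 0.0418) and Ndufaf1 (-0.82, 0.0442). The calls for Sdhc, Ndufa12 and Ndufaf1 were lost under 14, 13 and 13 of 26 alternatives, 1 of which repeated the main intensities. For the other members called in Nrf1 CKO, the effect was not shown to differ from that in Nrf2 KO or Keap1 KD. In Nrf1 CKO itself Cox7a1 measured 2.21, 1.69 and 1.79 against 2.19, 2.34 and 2.46 in its controls, a change of -0.43 that was not called (limma adjusted p = 0.142).

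Promoter windows from RefSeq on GRCm38.p6 were found for 74 of the 89 genes tested and for 25 of the 28 that fell in Nrf1 CKO. The 250 bases upstream of the annotated start are shown for the called members of largest change that had a window, so that motif matches can be seen in place. They are Cox7a1 (chr7:30183921-30184170, plus strand), Uqcr11 (chr10:80406822-80407071, minus strand), Sdha (chr13:74350241-74350490, minus strand) and Sdhb (chr4:140961021-140961270, plus strand). Cox6a2 and Ndufb9 are named only. Each is written 5' to 3' along the gene, with motif matches in capitals.
Cox7a1: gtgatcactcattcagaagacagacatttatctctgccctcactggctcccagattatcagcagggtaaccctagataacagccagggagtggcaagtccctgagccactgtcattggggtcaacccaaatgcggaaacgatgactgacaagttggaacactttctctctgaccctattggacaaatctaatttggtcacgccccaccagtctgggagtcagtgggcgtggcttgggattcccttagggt
Uqcr11: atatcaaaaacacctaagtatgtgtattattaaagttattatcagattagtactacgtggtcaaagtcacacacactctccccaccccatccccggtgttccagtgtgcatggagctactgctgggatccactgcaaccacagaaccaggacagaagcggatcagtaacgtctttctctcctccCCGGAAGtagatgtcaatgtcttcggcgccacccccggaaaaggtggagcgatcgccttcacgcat
Sdha: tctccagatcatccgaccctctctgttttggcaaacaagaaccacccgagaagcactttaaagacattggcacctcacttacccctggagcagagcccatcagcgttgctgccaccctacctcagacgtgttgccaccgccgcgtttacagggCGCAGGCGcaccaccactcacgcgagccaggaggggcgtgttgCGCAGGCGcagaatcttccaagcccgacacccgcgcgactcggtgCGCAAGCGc
Sdhb: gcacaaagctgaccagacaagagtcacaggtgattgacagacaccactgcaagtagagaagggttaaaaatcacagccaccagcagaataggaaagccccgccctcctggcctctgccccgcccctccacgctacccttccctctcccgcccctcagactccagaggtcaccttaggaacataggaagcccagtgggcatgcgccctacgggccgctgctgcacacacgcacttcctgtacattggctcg
Uqcr11 has a match to the GABP (ETS) motif CCGGAAG at -66 to -60, with the start counted as 0. Sdha has 3 matches to CGCANGCG, the core of the nuclear respiratory factor 1 site, at -97 to -90, -54 to -47 and -9 to -2. Uqcr11 has another such core at -5 to 2, which runs past the end of the stretch shown and is therefore not in capitals. Cox7a1 has no match in its window to these motifs or to TGACNNNGC, the core of the antioxidant response element, and Sdhb has the GABP motif at 6 to 12, beyond the stretch shown.

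Over whole windows, which run from 250 bases before to 50 after the start, with both strands searched and overlapping matches kept, the nuclear respiratory factor 1 core CGCANGCG was in 30 of the 74 members (40.5%) and in 9.22% of all genes with a window. This core was chosen after a first search of the same windows with longer spellings of the site, whose counts are not given. CCGGAAG was in 18 members (24.3%) and in 9.93% of all genes. TGACNNNGC was in 11 members (14.9%) and in 14% of all genes. Among the 25 members that fell in Nrf1 CKO, these motifs were in 12, 9 and 5, and among the 49 others in 18, 9 and 6. A match is a description of letters and not a site shown to be bound.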

How the data were processed

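Liver RNA of 18 samples was measured, per the labels, after Isogen extraction, labelling with Cy3 (Quick Amp kit) and hybridization to single-colour Agilent mouse arrays. The deposited processed-signal intensities were made with Agilent Feature Extraction (10.7.3.1, per the file headers), which subtracted background and did not normalize between arrays. The deposited median signal and background intensities are raw, and the control, outlier and above-background flags are other scores of that software, per the file headers. The authors' series table held the same intensities (810324 values, relative tolerance 1e-06).

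Control spots (1639 of 45018) and outlier spots were left out, log2 signals were averaged per probe, and log2 of each array's 75th percentile was subtracted. Of 41174 probes, 26718 had a symbol through RefSeq transcripts or names (GRCm38.p6 table; the headers name another build, so no array coordinates are given). Probes above background on all 3 arrays of a group were tested, with the brightest probe per gene. limma (3.58.1, R 4.3.3) was fitted to 6 group means (12 residual degrees of freedom) with Benjamini-Hochberg adjustment over 17721 genes, after a test on simulated data. Of the members, 20 had several probes, and of their 25 other probes 2 had the opposite sign in Nrf1 CKO, 6 in Nrf2 KO and 7 in Keap1 KD. In these counts Ndufaf4 and Sdha in Nrf2 KO and Ndufa1 in Keap1 KD were included only because a change rounded to 0.00.

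The members and lists were chosen with earlier results of these data known. Named genes were the 2 called members of largest change per class and comparison, a fixed set of core subunits, paired isoforms, up to 2 called genes per pathway list, and fixed regulators. Chosen after their values were seen were Cox7c, Sdhc, Sdhd, Ndufaf1, Ndufa12, Ndufb10, Uqcrq, Polg and the symbols given where all called members of a class are listed. Alternatives covered scaling, background, filters, probes, blocks, weights and left-out arrays. A further alternative took the intensities from the authors' series table, which were the same, so it could not change a call.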

Additional observations from a re-analysis of the deposited data

Results flagged for a closer look

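For 6 results, the difference between the effects in 2 lines passed the test of the difference (limma adjusted p under 0.05). Cox7a1 responded oppositely in Nrf2 KO and Keap1 KD, by 2.34 (SE 0.28, limma adjusted p = 0.000706), and this was called under all 26 alternatives. Of the 26, the series table held the same intensities and could not change a call. Averaging all probes left the values of Cox7a1, which had 1 probe, as they were. Cox7a1 also differed between Nrf1 CKO and Nrf2 KO, by -1.74 (SE 0.28, limma adjusted p = 0.00619). Sdhc differed between the same effects by -0.85 (SE 0.22, limma adjusted p = 0.0371). Between the Nrf1 CKO and Keap1 KD effects, Cox6a2 differed by 2.49 (SE 0.43, limma adjusted p = 0.00864), Ndufa12 by -0.89 (SE 0.24, limma adjusted p = 0.0418) and Ndufaf1 by -0.82 (SE 0.23, limma adjusted p = 0.0442). The Cox7a1 difference between Nrf1 CKO and Nrf2 KO and the Cox6a2 difference each lost the call under 1 of 26 alternatives (slide as a block). Sdhc lost it under 14 of 26, and Ndufa12 and Ndufaf1 under 13 of 26 each. Groups of 3 arrays were too small to look for single outlying samples.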

How the results depend on the processing

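Calls among members (main values 30 in Nrf1 CKO, 1 in Nrf2 KO, 1 in Keap1 KD, and 2, 3 and 1 for the differences Nrf1 CKO minus Nrf2 KO, Nrf1 CKO minus Keap1 KD and Nrf2 KO minus Keap1 KD) depended on the setting in Nrf1 CKO most. Quantile normalization gave 4 in Nrf1 CKO (median -0.06) and 1 for Nrf1 CKO minus Keap1 KD, and turned Atp5o (0.04), Ndufb11 (0.01) and Uqcrq (0.02). Normexp with quantile normalization gave 7 (median -0.05) and 5 for Nrf1 CKO minus Nrf2 KO, and turned Ndufb11 (0.02). Beside the 5, 3.08% of all genes were called lower and 4.35% higher. Scaling to the array median gave 14, 0 and 0 in the 3 lines, 1 and 24 for the first 2 differences, and a Keap1 KD median of 0.40. Beside the 24, 11.2% of all genes were called lower and 2.05% higher. Without a filter the counts were 9 in Nrf1 CKO, 0 in Nrf2 KO, and 1 and 1 for the first 2 differences. Probes above background on all arrays gave 5 for Nrf1 CKO minus Keap1 KD, and an intensity trend 7. The shares of all genes lower and higher in that difference were 5.35% and 3.32%, and 4.81% and 3.99%. In Nrf1 CKO itself these settings gave 38 and 39, with 15.2% and 12.1% of all genes lower and 8.41% and 8.35% higher. Each line alone gave 13, 0 and 0. Array weights gave 75 in Nrf1 CKO, and 43 and 7 for the first 2 differences. In these 3 tests 27.6%, 16.9% and 8.19% of all genes were called lower and 18.4%, 11.6% and 6.05% higher. In Nrf1 CKO the shares lower and higher were 7.9% and 9.22% with normexp, 3.65% and 2.91% without a filter, and 7.66% and 5.78% for the line alone. Slide as a block gave 1, 0 and 0, with 0 and 0 for the first 2 differences and a Nrf2 KO median of 0.28. Scan date as a block gave 27 in Nrf1 CKO, with 9.99% of all genes lower and 7.47% higher. It gave 0 in Nrf2 KO and 0 in Keap1 KD, 1 and 1 for the first 2 differences, and a Nrf2 KO median of 0.34. Slide as a random block, added after seeing the data, gave 32, 1 and 1, with 11.3% of all genes lower and 8.3% higher in Nrf1 CKO. Leaving out single arrays gave 2 to 37 in Nrf1 CKO, 0 to 1 in Nrf2 KO, 1 to 8 for Nrf1 CKO minus Nrf2 KO and 1 to 17 for Nrf1 CKO minus Keap1 KD (17 without Keap1 Control 1). Beside the 8, 6.67% of all genes were called lower and 5.36% higher, and beside the 17, 6.34% and 4.89%. Over all genes, deviations of same-numbered samples within a line correlated at -0.36 to 0.15. The members' median fell from number 1 to number 3 in both groups of the Nrf1 and Keap1 lines, so this does not settle whether the numbers pair samples. With the number as a replicate block the counts were 45, 1 and 1, and 9 and 15 for the first 2 differences. Beside the 45, 9 and 15, 11.8%, 3.86% and 4.76% of all genes were called lower and 8.39%, 3.48% and 4.37% higher. The cause of these changes was not tested. The test of Nrf2 KO minus Keap1 KD kept its 1 call, Cox7a1, under all 26 alternatives, 1 of which repeated the main intensities. The number of arrays limits the precision, and Cox6b2 at 0.83 in Nrf2 KO was not called.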
